A study of Mus musculus with 23 samples.

Results

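The mitochondrial respiratory chain genes carried in the nucleus were examined in neutrophils sorted from bone marrow (BM), peripheral blood (PB) and lung of mice. Members were all genes whose symbol begins with Nduf followed by a, b, c, s or v and a digit, Sdha to Sdhd, Uqcr, Cox4 to Cox8 followed by a, b or c, or Atp5. The rule uses names alone and found 82 of the 21878 genes listed. By symbol, 37 belonged to complex I, 4 to complex II, 8 to complex III, 16 to complex IV and 17 to ATP synthase. Cox7b2, Cox8b and Cox8c, a testis or muscle isoform each in their families, had no reads in any of the 17 libraries of sorted neutrophils.

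The respiratory chain sits in the inner mitochondrial membrane. Complex I takes electrons from NADH and complex II from succinate, complex III passes them on to cytochrome c, and complex IV hands them to oxygen; complexes I, III and IV pump protons, and ATP synthase lets them flow back to make ATP. Nearly all subunits are encoded in the nucleus, and a small set is encoded in mitochondrial DNA. Neutrophils are short-lived phagocytes that mature in BM, carry few mitochondria when mature and rely heavily on glycolysis.

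The names follow the deposited symbols. Ndufa4 is now counted with complex IV by many sources, Cox7a2l is a factor that joins complexes III and IV into supercomplexes, and Atp5s (now Dmac2l) and Atp5sl (now Dmac2) are mitochondrial proteins outside the ATP synthase core. Cox4i1, Ndufab1 and Cyc1 are respiratory chain subunits that the rule does not match, and they were counted in a separate list below.

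The series compared neutrophils of WT mice from lung, PB and BM (3 libraries each) and, in a second experiment, lung and PB neutrophils of WT and Piezo1-cKO mice (2 libraries per tissue and genotype). Piezo1-cKO mice carried loxP-flanked Piezo1, which encodes a mechanically gated cation channel, together with Vav1-iCre, a Cre that acts in the whole hematopoietic lineage and not in neutrophils alone. Per the study's methods the mice were young adults of either sex and the C57BL/6J mice were bought in, while the background strain of the Piezo1-cKO mice is not stated there. Lungs were perfused, and CD45+CD11b+Ly6G+ cells were sorted, after a negative selection for lung and PB. The study's tissue processing also digests lung with collagenase and DNase, a step not given for PB or BM. Tissue and this handling cannot be told apart in comparisons of lung with PB or BM. The labels give tissue and genotype, do not say whether the WT mice of the second experiment carried loxP sites, and do not tie libraries to separate mice, so p-values measure only the spread between these libraries, which may be technical.

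Gene-assigned reads numbered 16502148 to 19330774 per library of the 3 tissues and 9621120 to 15034817 per library of the genotype experiment. Neutrophil markers made up 10.7% to 28.7% of summed FPKM in all 17 libraries, with Ly6g between 50.6 and 781 FPKM. Markers of immature granulocytes made up 7.4% to 7.53% in BM and at most 0.553% in PB and lung, while the early granule genes Elane, Mpo and Ctsg were near 0 in BM. Dendritic cell markers made up 0.0231% to 0.0248% in lung and 0.0108% to 0.0164% in PB of the tissue comparison, and 0.0113% to 0.0146% in lung and 0.00111% to 0.0017% in PB of the Piezo1 experiment. H2-Aa reached 71.7 FPKM in lung against at most 0.249 in PB. Itgax overlapped in the tissue comparison, at 55.1 to 58.7 FPKM in lung and 47.4 to 66.6 in PB. Itgax was lower in WT lung (7.76 and 8.51) than in WT PB (9.14 and 8.93). In Piezo1-cKO it was higher in lung (10.33 and 10.03) than in PB (7.23 and 6.33). Flt3, Xcr1 and Cd209a were at most 0.446 FPKM in every library. PB replicate 3 stood apart from the other PB libraries, with a chi-square per degree of freedom over genes of 23.2 and 38.6 against 4.56 between the other two. Piezo1 itself had 3 to 10 reads per library in both genotypes of the second experiment and could not check the labels, since the gene-level value also counts exons outside the deleted stretch.

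Taken as a share of all FPKM, the 82 members were lowest in lung, where the median of all genes tested was lower as well, with a log2 fold change of -0.54 against PB. They made up 0.636% ± 0.00738 in BM (SD, n = 3), 0.681% ± 0.0352 in PB and 0.47% ± 0.0165 in lung. In the Piezo1 experiment the share was again lower in lung, 0.579% ± 0.0161 in WT and 0.585% ± 0.014 in Piezo1-cKO (n = 2 each), than in PB, where it was 0.838% ± 0.00319 in WT and 0.841% ± 0.028 in Piezo1-cKO. The lung and PB libraries did not overlap in either experiment, and within a tissue the genotypes did overlap. FPKM, fragments per kilobase of gene and per unit of sequencing depth, is corrected for gene length and so allows levels to be compared between genes. In bulk libraries, fewer cells of a type and less RNA per cell cannot be told apart.

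**Figure D1:**
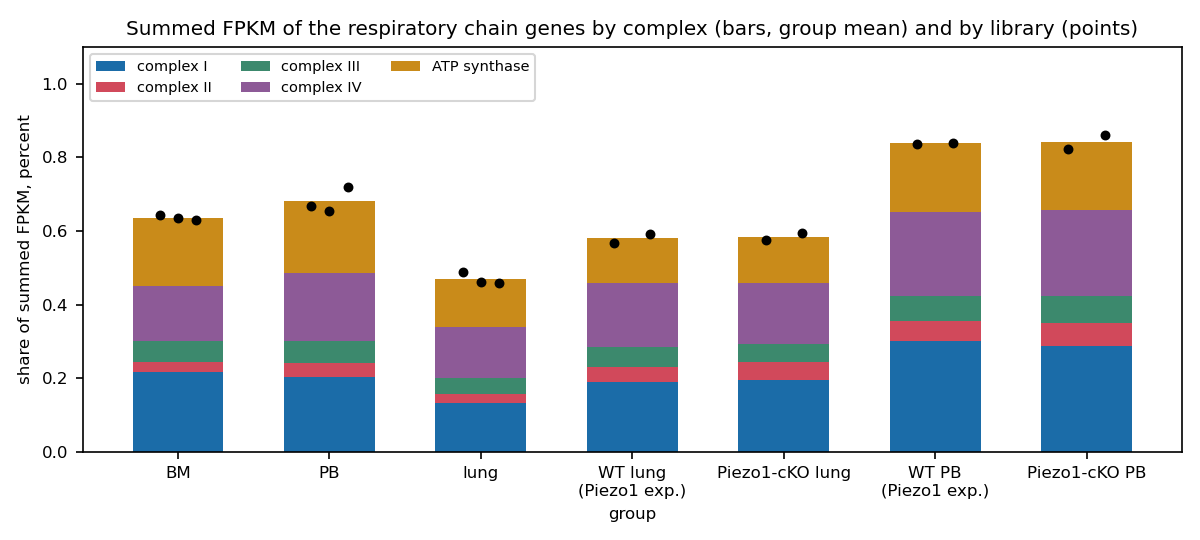
Bars show the mean share of summed FPKM, in percent, taken by each complex in each of the 7 groups, stacked, and points show the members' total in each library. The 3 lung libraries sit between 0.458% and 0.489%, below all BM and PB libraries of the same experiment, and the 4 PB libraries of the Piezo1 experiment lie between 0.822% and 0.861%.

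The complexes differed in their group means. Complex I made up 0.217% of summed FPKM in BM, 0.203% in PB and 0.131% in lung, and ATP synthase 0.186%, 0.196% and 0.13%. Complex IV was at 0.148%, 0.183% and 0.139%, complex II at 0.0272%, 0.0385% and 0.0256%, and complex III at 0.0574%, 0.0607% and 0.0436%. All but complex I had their highest mean in PB. The most abundant member was Ndufa3, a small accessory subunit of complex I, in BM at 140 FPKM, and Cox8a, a small complex IV subunit, in PB at 193 FPKM and in lung at 162 FPKM. The median member lay at 29.5 FPKM in BM, 20.8 in PB and 13.0 in lung.

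Where a subunit has several genes, the widely expressed form supplied nearly all the RNA. Cox6a1, Cox6b1, Cox7a2, Cox7b, Cox8a and Ndufa4 each gave at least 96.9% of their family's FPKM in every library. The muscle and heart forms Cox6a2 and Cox7a1 had at most 4 reads in any library, and Cox6b2, known from testis, had 19, 10 and 22 reads in the BM libraries against 0 to 2 in PB and lung of the same experiment. Ndufa4l2, a hypoxia-inducible relative of Ndufa4, had reads in only 2 of the 17 libraries, 6 in lung replicate 3 and 9 in Piezo1-cKO lung replicate 1.

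The 3 genes for subunit c, the protein of the rotor ring of ATP synthase, were used in different proportions. Atp5g3 gave 72.6% ± 4.08 of their summed FPKM in BM, 67.3% ± 4.68 in PB and 61.9% ± 1.62 in lung (SD, n = 3), and the lung and BM libraries did not overlap. Atp5g2 gave 20.7% ± 3.44, 26.8% ± 1.77 and 28.9% ± 1.3, and Atp5g1 gave at most 10.7% in any library of the 3 tissues. In the Piezo1 experiment Atp5g3 gave 82.0% in WT PB and 71.1% in WT lung. Atp5g1 and Atp5g2 share near-identical sequence with other genes, so their counts are uncertain.

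The lung vs BM comparison asked how the respiratory chain genes differ between neutrophils of the lung and those of the marrow, where they are made. Of the 74 members that passed the filter on low values (at least 1 FPKM in 3 libraries), 37 were lower in lung by limma on log2(FPKM + 1), with an adjusted p under 0.05 and a log2 fold change beyond 1, and 0 were higher. Of the 37, Ndufa5 and Ndufa11 reached 1 FPKM in BM alone, so that they passed the filter only through the group where they are high, and 35 were called without them. Over all 8236 genes tested, 36% were called lower and 9.86% higher. At an unadjusted p under 0.05, 66 members were lower and 2 higher by limma. Shares of all genes at an unadjusted p are not given in this report. Such counts, here and below, thus do not set the members apart from other genes. The members' median log2 fold change was -1.0, beside -0.70 for all genes tested, a difference of -0.30. By complex, 24 of 36 complex I members were called (median -1.20), against 7 of 16 for ATP synthase (-0.88), 3 of 8 for complex III (-0.83), 2 of 10 for complex IV (-0.53) and 1 of 4 for complex II (-0.33). Within complex I, 4 of the 7 core subunits and 20 of 29 accessory subunits were called, Ndufa5 and Ndufa11 among the accessory ones.

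Scaling matters for this comparison, because it moves the median of all genes. With FPKM rescaled to the median gene, the all-gene median was -0.18, 10 members were called lower and 0 higher, and 17.2% of all genes were called lower and 16.5% higher. On recovered reads, edgeR with TMM called 8 members lower and 2 higher, beside 23.1% and 21.3% of all genes. DESeq2 called the same numbers of members, beside 22.1% and 22% of all genes. At an unadjusted p under 0.05, 40 members were lower and 22 higher by edgeR with TMM, and 36 and 22 by DESeq2. By the adjusted p alone 68 members passed, beside 92.6% of all genes. Relative to the all-gene median, the members' median was between -0.25 and -0.30 under these settings, while 23 of the 74 changed sign in at least 1 of 4 other scalings, none of them among the 37 called. In lung vs BM, 65 members were lower in lung with no overlap between libraries and 2 were higher, beside 71% and 21.9% of all genes.

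Complex I supplied the members with the largest falls. Ndufv3, an accessory subunit of the NADH-binding arm (chr17:31520115-31531326, GRCm38), was at 28.8, 29.3 and 27.3 FPKM in BM, 4.08, 4.78 and 7.42 in PB and 3.69, 2.51 and 3.38 in lung. BM stood far above both other tissues with no overlap, and all lung libraries lay below all PB libraries. The ratio of mean FPKM was 8.92-fold lower in lung than in BM, and on the log2(FPKM + 1) scale, which is used for all log2 fold changes by limma here, the difference was -2.82 (SE 0.0965, adjusted p = 1.04e-09, limma).

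Ndufa9, an accessory subunit near the junction of the 2 arms of complex I, was at 11.8, 13.1 and 12.2 FPKM in BM, 3.55, 3.2 and 4.72 in PB and 1.72, 1.81 and 1.7 in lung. The 3 tissues formed 3 separate ranges, and mean FPKM was 7.09-fold lower in lung than in BM (log2 fold change of FPKM + 1 -2.28, SE 0.0625, adjusted p = 2e-10). Ndufc1 and Ndufc2, small subunits of the membrane arm, had log2 fold changes of -1.96 (SE 0.15, adjusted p = 5.26e-07) and -1.98 (SE 0.171, adjusted p = 1.33e-06). Ndufa5 and Ndufa11, chosen after their values were seen because they lie below the level set for naming genes, were at 4.13 and 4.02 FPKM in BM and at 0.318 and 0.371 in lung, with log2 fold changes of -1.97 and -1.88.

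Of the core subunits of complex I, which hold its flavin and iron-sulfur clusters, 4 of 7 were called by limma. By edgeR with TMM 0 of 7 were called, with 5 lower and 1 higher at an unadjusted p under 0.05. DESeq2 also called 0, with 4 lower and 1 higher at that p. Ndufs1, the largest core subunit, was at 15, 16 and 15.5 FPKM in BM, 12.7, 12.4 and 11.2 in PB and 5.4, 5.67 and 5.37 in lung. PB lay below BM and lung below both, with no overlap. Its lung vs BM log2 fold change was -1.35 (SE 0.051, adjusted p = 2.27e-09). Ndufv2 (-1.54) and Ndufs8 (-1.21) were called as well, while Ndufs7 (-0.58) and Ndufv1 (-0.43) were not.

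Outside complex I the pattern was mixed. In complex III, Uqcrb, a small subunit (chr13:66900576-66905350), was at 23.8, 21.1 and 27.3 FPKM in BM against 6.26, 5.79 and 5.78 in lung, a log2 fold change of -1.84 (SE 0.0824, adjusted p = 7.9e-09). Uqcrc1 and Uqcrc2, the core proteins, had -1.45 and -1.17 and were called, while Uqcrfs1, the Rieske iron-sulfur protein, and Uqcrh, the hinge protein, had -0.49 and -0.08. Uqcrb has a near-identical copy in the annotation, which leaves its count uncertain.

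In ATP synthase, Atp5o, which ties the catalytic head to the outer stalk (chr16:91925223-91931630), was at 36.7, 32.5 and 34.7 FPKM in BM and 8.31, 8.45 and 10.8 in lung. These ranges were far apart, with a log2 fold change of -1.81 (SE 0.0881, adjusted p = 1.51e-08). Of the catalytic head subunits, Atp5a1 had -1.38 and was called, and Atp5b had -0.71 and was not. Atp5g3 had -1.70 and was called.

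Some members lay far above the all-gene median. Cox8a was at 146, 130 and 127 FPKM in BM and 174, 165 and 149 in lung, a log2 fold change of 0.27 (SE 0.063, adjusted p = 0.00216) that lies 0.97 above the all-gene median. The lung and BM libraries did not overlap, though the change is below the size set for a call. Ndufa2, an accessory subunit of complex I, had 0.31 (SE 0.0698, adjusted p = 0.00166). These are the 2 members that edgeR and DESeq2 call higher, with log2 fold changes by edgeR with TMM of 1.07 for Cox8a and 1.12 for Ndufa2. Sdha, the flavoprotein of complex II, and Cox7a2l had -0.03 and -0.01 in FPKM, and 0.77 and 0.79 by edgeR with TMM, a change of sign that rests on the scaling. Sdhc, a membrane anchor of complex II, was the exception in its complex, at 20.3, 20 and 19.8 FPKM in BM and 8.61, 7.61 and 8.38 in lung, and was called at -1.19 (SE 0.0524, adjusted p = 6.9e-09) by limma, and not by edgeR with TMM (-0.49) or DESeq2 (-0.44).

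**Figure D2:**
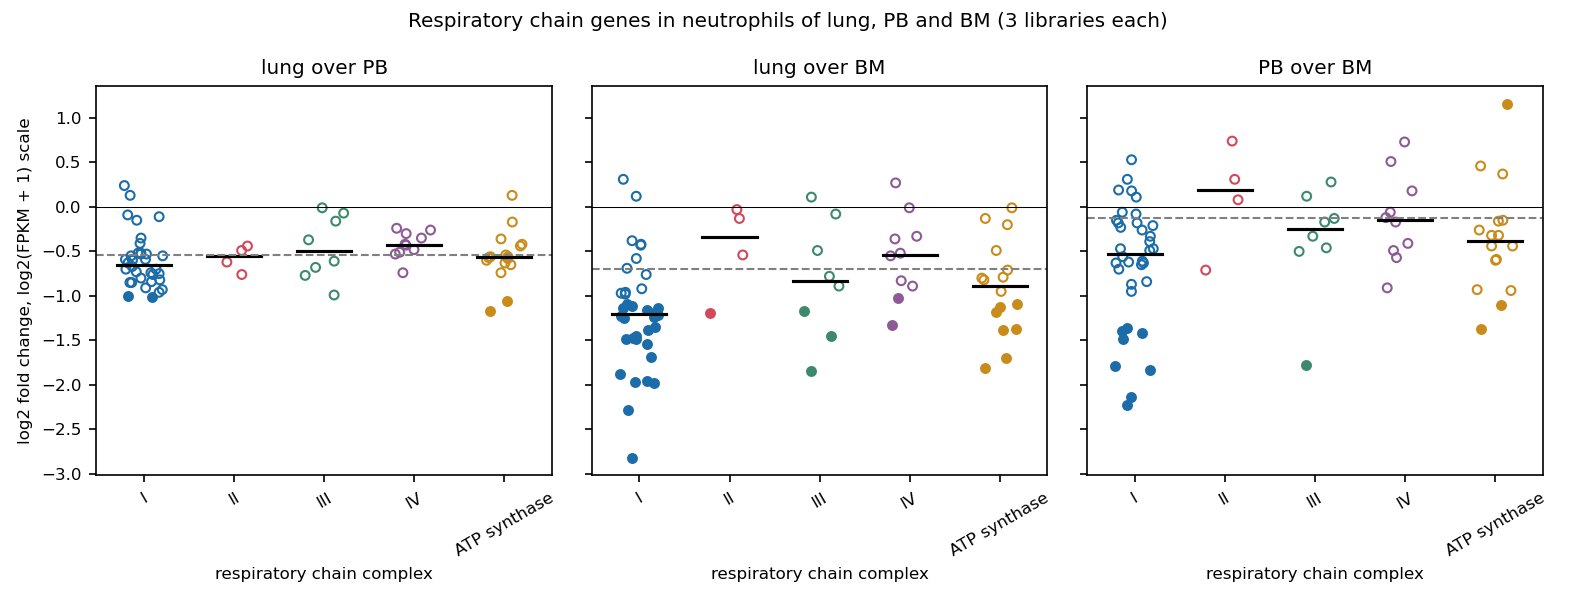
Each point is a tested member in lung over PB, lung over BM or PB over BM, with the log2 fold change of FPKM + 1 on the vertical axis and the complexes side by side; filled points were called, black lines are complex medians and the dashed grey line is the median of all genes tested. In lung over BM most complex I points lie below the dashed line at -0.70, and in lung over PB the members scatter around the dashed line at -0.54.

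**Figure D3:**
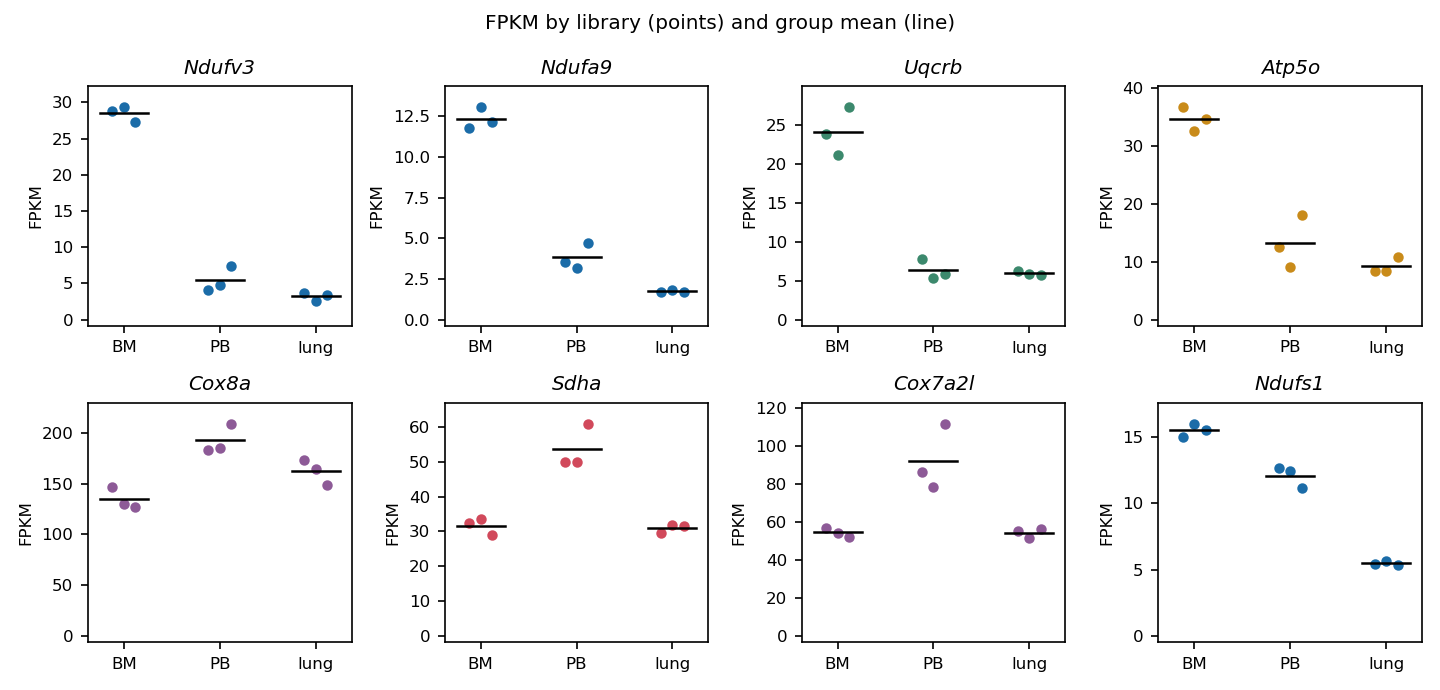
FPKM of 8 members in each library of BM, PB and lung, with lines at group means. Ndufv3, Ndufa9, Uqcrb and Atp5o are high in BM alone, Ndufs1 is low in lung alone, and Sdha and Cox7a2l are highest in PB.

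The PB vs BM comparison bears on what differs once neutrophils have entered the blood. It shares its BM libraries with the comparison above. Of 74 members tested, 11 were called lower in PB and 1 higher, beside 14.1% and 7.85% of all 8237 genes tested. Ndufa5 and Ndufa11 again passed the filter through BM alone, and 9 were called lower without them. The members' median was -0.40, beside -0.12 for all genes. Of the 11, 8 were accessory subunits of complex I (8 of 29 tested, Ndufa5 and Ndufa11 among the 8). Of its 7 core subunits, 0 were called by limma, edgeR or DESeq2. At an unadjusted p under 0.05 by limma, 3 of them were lower and 1 higher. With edgeR and TMM, 12 members were called lower and 1 higher, beside 17.8% and 11.6% of all genes, and with DESeq2 12 and 1, beside 17.6% and 11.8%. By the adjusted p alone 57 members passed, beside 73.1% of all genes.

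Log2 fold changes were -2.23 for Ndufv3 (SE 0.168, adjusted p = 7.46e-06), -1.83 for Ndufc2, -1.78 for Uqcrb, -1.48 for Ndufa9 and -1.42 for Ndufc1. Ndufs4, an accessory subunit of the NADH-binding arm, had -1.39, Atp5o had -1.37 and Atp5g3 had -1.10. Ndufa5, Ndufa11 and Ndufa12, again chosen after their values were seen, had -2.14, -1.79 and -1.36, with PB means of 0.165, 0.463 and 1.24 FPKM. For Uqcrb the PB libraries, 7.75, 5.4 and 5.88 FPKM, overlapped those of lung.

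Several members were higher in PB than in BM without passing the size set for a call. Sdha was at 50, 49.9 and 60.9 FPKM in PB against 32.3, 33.5 and 29 in BM, a log2 fold change of 0.74 (SE 0.0919, adjusted p = 0.000149). Cox7a2l was at 86.2, 78.3 and 112 against 56.7, 54.3 and 52.3, or 0.73 (SE 0.12, adjusted p = 0.000738). In both, PB replicate 3 was the highest library and the other PB libraries also lay above all BM libraries. Ndufa7 (0.53), Cox8a (0.51) and Atp5l, subunit g of ATP synthase (0.46), had smaller values of the same sign. The single call was Atp5sl, at 5.24, 5.51 and 3.53 FPKM in PB against 1.99, 1.13 and 1.61 in BM (log2 fold change 1.16, SE 0.171, adjusted p = 0.000415). It lies below the level set for naming genes and was named after its value was seen. In PB vs BM, 47 members were lower and 12 higher in PB with no overlap, beside 45.4% and 31.4% of all genes.

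The fold changes against BM varied with abundance. Across the 74 members, the log2 fold change correlated with log2 mean FPKM at Pearson r = 0.42 in lung vs BM and 0.53 in PB vs BM, beside 0.21 and 0.19 across all genes tested, and with exon length at -0.07 and 0.06. These are correlations across genes, which share libraries and are not independent replicates, and the mean FPKM contains the values that make the fold change. Immature granulocyte markers were also higher in BM, at 7.4% to 7.53% of summed FPKM against 0.137% to 0.18% in PB and 0.147% to 0.149% in lung, and so were markers of proliferating cells, at 0.00914% to 0.00968% against at most 5.29e-05% in PB and 0.000499% in lung. The part of either in these differences was not tested.

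Promoters of members with different patterns are shown so that the levels can be read beside their sequence. RefSeq promoter windows, 250 bases before to 50 after the start on GRCm38.p6, were matched for 69 of the 82 members. Searched on both strands, with overlaps allowed, were an NRF1 motif (GCGCA, any base, then GCGC), the ETS or GABP core CCGGAAG, the YY1 motif AAGATGGCG, the ERR motif TCAAGGTCA and the E-box CACGTG. Stretches from 120 bases before to 30 after the start are printed 5′ to 3′ on the gene's strand, with motif letters in capitals. Sdha (highest in PB; chr13:74350211-74350360, minus strand) holds 3 NRF1 motifs, Atp5o (chr16:91931601-91931750, minus strand) and Ndufa11 (chr17:56717642-56717791, plus strand), both low outside BM, hold 1 each, Cox8a (the most abundant member in PB and lung; chr19:7217587-7217736, minus strand) holds an ETS core, and Ndufv3 (the largest fall; chr17:31519995-31520144, plus strand) holds none of the 5 in this stretch.
Sdha: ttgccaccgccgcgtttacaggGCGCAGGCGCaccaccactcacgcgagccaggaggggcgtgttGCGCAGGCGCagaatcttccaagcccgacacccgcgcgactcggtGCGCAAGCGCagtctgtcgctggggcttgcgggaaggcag
Atp5o: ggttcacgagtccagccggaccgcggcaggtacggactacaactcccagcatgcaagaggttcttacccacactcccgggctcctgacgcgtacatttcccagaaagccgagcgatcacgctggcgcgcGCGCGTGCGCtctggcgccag
Ndufa11: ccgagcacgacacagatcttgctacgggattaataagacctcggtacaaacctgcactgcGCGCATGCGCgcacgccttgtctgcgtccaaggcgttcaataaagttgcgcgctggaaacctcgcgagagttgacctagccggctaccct
Cox8a: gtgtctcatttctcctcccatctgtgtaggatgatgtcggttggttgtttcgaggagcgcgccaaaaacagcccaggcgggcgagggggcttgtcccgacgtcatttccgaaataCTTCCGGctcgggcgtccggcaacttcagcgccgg
Ndufv3: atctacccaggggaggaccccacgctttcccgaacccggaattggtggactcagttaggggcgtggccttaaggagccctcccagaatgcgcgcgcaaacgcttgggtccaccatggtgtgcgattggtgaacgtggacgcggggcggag

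The NRF1 motif was in 24.6% of the 69 members' windows, beside 5.19% of all 27025 genes with a window and 12.8% of the 6729 tested in lung vs BM. The YY1 motif was in 11.6%, beside 1.64% and 4.25%, and the ERR motif in 2.9%, beside 0.466% and 0.267%. The ETS core was in 23.2%, beside 9.93% and 23.6%, and the E-box in 10.1%, beside 8.09% and 12.1%. Among the 30 members called lower in lung vs BM that have a window, 33.3% held the NRF1 motif and 20.0% the ETS core, and among the 34 tested and not called, 20.6% and 29.4% did. The 30 include Ndufa5 and Ndufa11, which passed the filter only through BM, where they are high. Both hold the NRF1 motif, so the 33.3% counts genes whose calls are no independent sign of a difference. These are counts of letters in a window, given without a test.

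The lung vs PB comparison was made in both experiments and bears on what differs between neutrophils of lung and of blood. In the tissue comparison, 4 of 72 members were called lower in lung and 0 higher by limma, beside 19.5% and 7.75% of all 7577 genes tested. The members' median was -0.57, close to the -0.54 of all genes. By limma, 61 members were lower at an unadjusted p under 0.05 and 0 higher, again without the share of all genes at that p. With FPKM rescaled to the median gene, 0 were called in either direction, beside 6.59% lower and 11.9% higher over all genes, 25 had an unadjusted p under 0.05, counting both directions, and the median was -0.01. With edgeR and TMM 1 was called lower and the median was 0.02, beside 11.4% of all genes lower and 14.1% higher. There, 13 members were higher and 9 lower at an unadjusted p under 0.05. With DESeq2 0 were called and the median was 0.03, beside 11.1% and 14.2%, so the sign of the list's median rests on the scaling. Of the 20 members with an unadjusted p under 0.05 by DESeq2, 12 were higher and 8 lower. By the adjusted p alone 60 members passed in limma, beside 85.5% of all genes. Sign changed for 41 of the 72 in at least 1 of 4 other scalings, none of them among the 4 called. The libraries of 61 members did not overlap, all lower in lung, beside 69.8% of all genes.

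The members called included catalytic and core subunits. Atp5a1, the alpha subunit of the catalytic head, was at 45.2, 43.1 and 50.4 FPKM in PB against 22.4, 21.8 and 20.7 in lung. No library of PB came near lung, and the log2 fold change was -1.06 (SE 0.0698, adjusted p = 2.68e-06). Ndufs1 had -1.01 (SE 0.0718, adjusted p = 3.7e-06) and Ndufs8, an iron-sulfur core subunit of complex I, had -1.0 (SE 0.12, adjusted p = 8.71e-05). Just short of the size set was Uqcrc1 (-0.99). The 7 core subunits of complex I had a median of -0.93 and 2 calls by limma, and 0 calls by edgeR with TMM or DESeq2, each with 4 lower at an unadjusted p under 0.05. The 27 accessory subunits tested had a median of -0.59 and 0 calls by limma, edgeR or DESeq2, with 22 lower at an unadjusted p under 0.05 by limma. At that unadjusted p, 4 were higher and 2 lower by edgeR with TMM, and 3 and 1 by DESeq2. Atp5sl, named after its value was seen, had -1.17 (SE 0.143, adjusted p = 9.81e-05). Ndufa2 had 0.13 (adjusted p = 0.307).

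Leaving out lung replicate 3 took these 4 calls to 2, with Ndufs1 at -1.0 and Ndufs8 at -0.89. Without PB replicate 3, the library that stood apart, 3 were called.

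The WT lung vs WT PB in the Piezo1 experiment comparison used libraries that share none with the first. Values of lung and PB there come from separate deposited tables, and levels were set side by side across them as FPKM, which is scaled by each library's own depth. Of 73 members tested, 14 were called lower in lung and 0 higher by limma, beside 26.5% and 7.5% of 7143 genes, with 64 lower and 4 higher at an unadjusted p under 0.05. The members' median was -0.77 beside -0.62 for all genes. Complex I gave 10 of the 14 calls (of 34 tested, median -0.87). Ndufa12, among the 10, passed the filter through WT PB alone, where it is high, and 13 members were called lower without it. With FPKM rescaled to the median gene, 1 member was called lower and 3 higher, beside 10.4% and 12.2% of all genes. With edgeR and TMM, 2 members were called lower and 5 higher, beside 16.6% and 15.9%, and with DESeq2 2 and 5, beside 15.7% and 16.2%. At an unadjusted p under 0.05, 24 were lower and 25 higher by edgeR, and 14 and 20 by DESeq2. By the adjusted p alone 67 members passed, beside 89% of all genes. The sign changed for 28 of 73 in at least 1 of 4 scalings, none of them called. No overlap, lower in lung, was seen for 65 members and higher for 6, beside 75.8% and 18.7% of all genes.

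Ndufs1 was at 6.42 and 6.65 FPKM in WT lung against 18.2 and 17.9 in WT PB, a log2 fold change of -1.34 (SE 0.0622, adjusted p = 9.02e-07). Atp5a1 was at 18.9 and 22.1 against 56.1 and 56.0 (-1.41, SE 0.0712, adjusted p = 1.32e-06). Both genes were lower in lung in each experiment. Cox7a2l was at 24.1 and 24.0 in WT lung against 67.9 and 63.6 in WT PB (-1.41), where the first experiment had -0.74. Ndufb10 and Ndufa10, accessory subunits of the membrane arm, had -1.61 and -1.35. Ndufa12, an accessory subunit that replaces an assembly factor late in complex I assembly, had -1.80, from 1 and 7 reads in WT lung and 34 and 29 in WT PB, and passed the filter through WT PB alone. The 6 members higher in lung with no overlap were Ndufb2 (0.60), Ndufa2 (0.40), Uqcrfs1 (0.39), Atp5g2 (0.39, adjusted p = 0.104 by limma), Uqcrq (0.33) and Atp5d (0.12, adjusted p = 0.0572).

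Set side by side, the 72 members tested in both experiments had lung over PB values that correlated at Pearson r = 0.57 and Spearman rho = 0.62, with 64 lower in both and 1 higher in both. All 6719 genes tested in both gave 0.90 and 0.80. These correlations are across genes and are given as a description.

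The genotype comparison asked whether loss of Piezo1 changes these genes in lung neutrophils. For Piezo1-cKO vs WT in lung, 1 of 72 members was called, Ndufa12, which was higher, beside 0.793% of all 6434 genes called higher and 0.202% lower. By limma 0 were called lower, with 24 lower and 14 higher at an unadjusted p under 0.05, and edgeR and DESeq2 also called 1 higher and 0 lower, beside 3.4% and 1.96% of all genes by edgeR and 3.09% and 1.74% by DESeq2. The members' median was -0.03 beside 0.09 for all genes. At an adjusted p alone, 13 members (18.1%) were higher and 22 (30.6%) lower, where all genes had 35% higher and 15.8% lower. No overlap was seen for 18 members higher and 29 lower, beside 50.2% and 26.4% of all genes, and 10 of the 72 changed sign in at least 1 of 4 other scalings, none of them called.

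Differences ran both ways within a complex. Summed markers of several cell types also differed by genotype with no overlap. Those of neutrophils made up 16.6% to 17.1% of summed FPKM in WT lung and 13.6% to 14.3% in Piezo1-cKO lung. Those of monocytes and macrophages made up 0.0412% to 0.0413% and 0.0464% to 0.0475%. Those of immature granulocytes made up 0.172% to 0.176% of summed FPKM in WT lung and 0.245% to 0.249% in Piezo1-cKO lung. Those of dendritic cells made up 0.0144% to 0.0146% and 0.0113% to 0.0118%. Single genes did not all follow these sums. The dendritic cell fall was mainly H2-Aa, at 70.4 and 71.7 FPKM in WT lung and 46.6 and 50.3 in Piezo1-cKO lung. Xcr1 was lower too, while Itgax (7.76 and 8.51 against 10.33 and 10.03) and the low Flt3 and Cd209a were higher. Of the immature granulocyte genes, Camp, Ltf, Ngp and Chil3 were higher and the low Mpo and Prtn3 lower. Of the neutrophil genes, S100a8, S100a9, Retnlg and Ly6g were lower and Csf3r, Cxcr2, Itgam and Mmp9 higher. Among monocyte and macrophage genes, Csf1r, Adgre1 and Siglecf were higher and Ly6c2 lower. The part of these markers in the members' values was not tested. In ATP synthase, Atp5o was at 14.1 and 13.0 FPKM in Piezo1-cKO lung against 7.39 and 8.10 in WT lung (log2 fold change 0.73, SE 0.0749, adjusted p = 0.000425), and Atp5a1 at 30.9 and 29.2 against 18.9 and 22.1 (0.53, SE 0.0758, adjusted p = 0.00141). Atp5k, subunit e, lay the other way, at 14.2 and 17.3 against 23.7 and 25.7 (-0.62, SE 0.0926, adjusted p = 0.00185). None of these reached the size set for a call, and in none did the genotypes overlap.

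Complex III was the complex furthest below the all-gene median, at -0.30 over 8 members. Uqcrq (-0.46, SE 0.0511, adjusted p = 0.000591), Uqcr11 (-0.39), Uqcrb (-0.38), Uqcrfs1 (-0.32) and Uqcrh (-0.27) had an adjusted p under 0.05, and Uqcr10 did so with the other sign (0.29). Uqcrc1 had 0.02 and Uqcrc2 -0.17. In complex IV the lowest were Cox7c (-0.57) and Cox5b (-0.49), each with a near-identical copy, and in complex II Sdhc was at 17.7 and 18.1 FPKM against 13.6 and 12.8 (0.41, SE 0.059, adjusted p = 0.00147).

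Ndufa12 rests on few reads and passed the filter only through the Piezo1-cKO libraries, where it is high, so its call is no independent sign of a difference and 0 members were called apart from it. It had 29 and 22 reads in Piezo1-cKO lung and 1 and 7 in WT lung, or 3.13 ± 0.538 against 0.475 ± 0.502 FPKM (SD, n = 2), a log2 fold change of 1.52 (SE 0.237, adjusted p = 0.00366). It was named after its value was seen, and it shares a near-identical stretch with another annotated gene, Gm15920. When either Piezo1-cKO lung library was left out it no longer passed the filter, and 0 members were called.

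**Figure D4:**
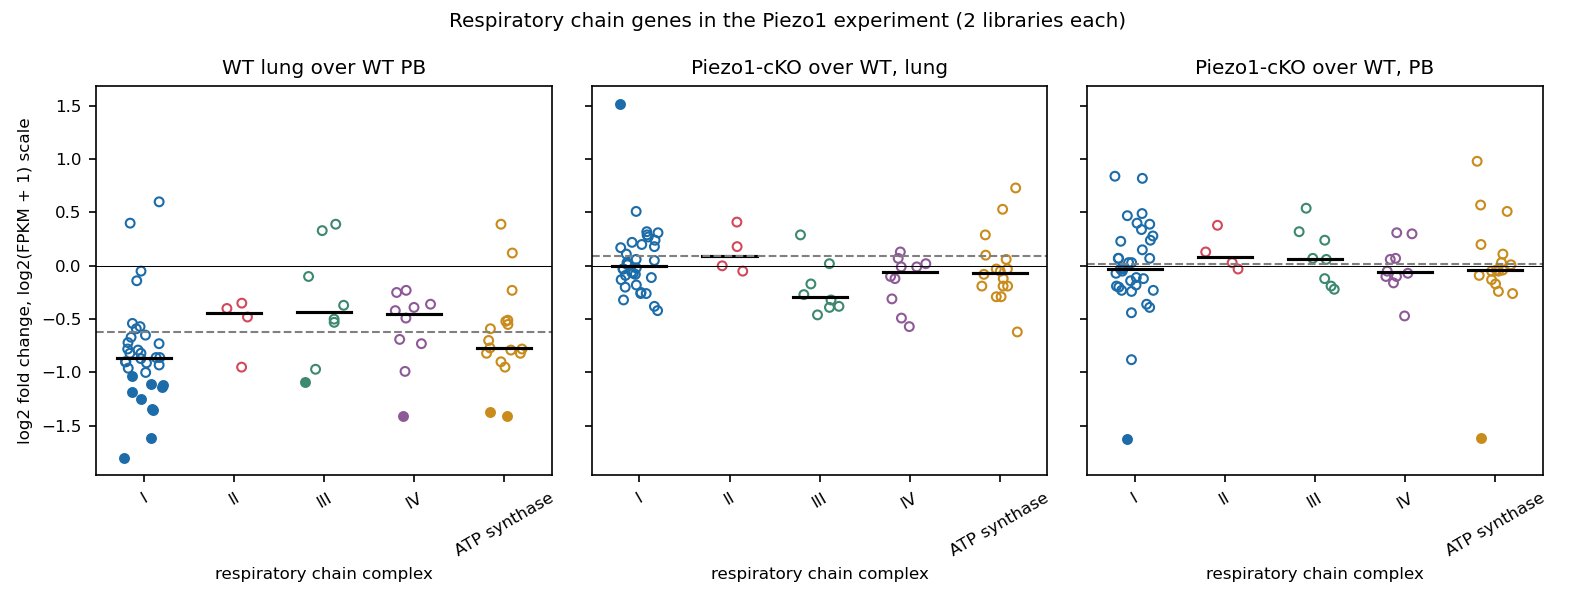
Each point is a tested member in WT lung over WT PB, Piezo1-cKO over WT in lung, or Piezo1-cKO over WT in PB, with the log2 fold change of FPKM + 1 on the vertical axis by complex; filled points were called, black lines are complex medians and the dashed grey line is the median of all genes tested. In the genotype panels Ndufa12 and Atp5s are the filled points, and complex III lies lowest in lung at a median of -0.30.

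In Piezo1-cKO vs WT in PB, 2 of 74 members were called lower and 0 higher by limma, beside 1.97% and 1.68% of all 7256 genes. With edgeR and TMM, 2 were lower and 3 higher, beside 5.55% and 4.58% of all genes, and with DESeq2 1 and 2, beside 5.13% and 4.37%. At an unadjusted p under 0.05, 15 were lower and 20 higher by limma. The members' median was -0.03 beside 0.02 for all genes, and complex medians ran from -0.06 in complex IV to 0.08 in complex II. At an adjusted p alone, 18 members were higher and 14 lower (24.3% and 18.9%), beside 26.5% and 23.2% of all genes. No overlap was seen for 25 members higher and 20 lower, beside 40.9% and 36.4%. Erythroid markers moved with genotype here, making up 0.00431% to 0.00458% of summed FPKM in the WT libraries and 0.181% to 0.196% in the Piezo1-cKO libraries, with 5 of 7 listed genes called higher and Hbb-bs at 338 and 408 FPKM against 9.73 and 9.28. Immature granulocyte markers made up 0.331% to 0.333% in the WT and 0.547% to 0.553% in the Piezo1-cKO libraries. Neutrophil markers made up 23.4% to 23.8% in the WT and 20.1% to 22.1% in the Piezo1-cKO libraries. The part of these markers in the members' values in PB was not tested.

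The 2 calls were low in reads, and Atp5s passed the filter only through the WT libraries, where it is high. Atp5s had 74 and 79 reads in the WT libraries of PB and none in either Piezo1-cKO library, which makes it at least 20.8-fold lower against a floor of 3 reads per library (limma on log2(FPKM + 1), adjusted p = 0.000232). Ndufa12 had 34 and 29 reads in WT against 0 and 13 in Piezo1-cKO libraries (log2 fold change -1.62, SE 0.449, adjusted p = 0.0311), so that its 2 Piezo1-cKO libraries differed from each other. Its direction was thus opposite to that in lung. Both genes were named after their values were seen. Without WT PB replicate 1, 0 members were called, and without Piezo1-cKO PB replicate 1, Atp5s alone was called and Ndufa12 had -0.92. Without WT PB replicate 2, 1 was called, Atp5g2, which was higher at 1.32.

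Among well-read members, Ndufb4, an accessory subunit of the membrane arm with a near-identical copy, was at 18.8 and 21.5 FPKM in Piezo1-cKO PB against 38.6 and 37.3 in WT PB. The genotypes were far apart, with a log2 fold change of -0.88 (SE 0.0754, adjusted p = 0.000391). Cox7b (-0.47), Ndufa1 (-0.44), Ndufs1 (-0.39) and Ndufb8 (-0.36) also lay lower. In the other direction, Atp5g2 was at 7.07 and 7.09 against 2.23 and 4.22 (0.98, SE 0.207, adjusted p = 0.00858), Uqcrc1 at 87.8 and 80.6 against 58.9 and 56.3 (0.54, SE 0.0593, adjusted p = 0.000734) and Sdha at 92.7 and 90.0 against 71.9 and 68.3 (0.38, SE 0.0507, adjusted p = 0.00139). Atp5o was higher in Piezo1-cKO in both tissues, at 0.57 in PB and 0.73 in lung. Below the level set for naming genes, Ndufa11 and Ndufc2, 2 complex I subunits called lower in PB than in BM, had 0.84 and 0.82. They were at 1.39 and 3.91 FPKM in Piezo1-cKO PB and were named after their values were seen. Ndufa11 passed the filter only through the Piezo1-cKO libraries, where it is high, so its value is no independent sign of a difference.

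**Figure D5:**
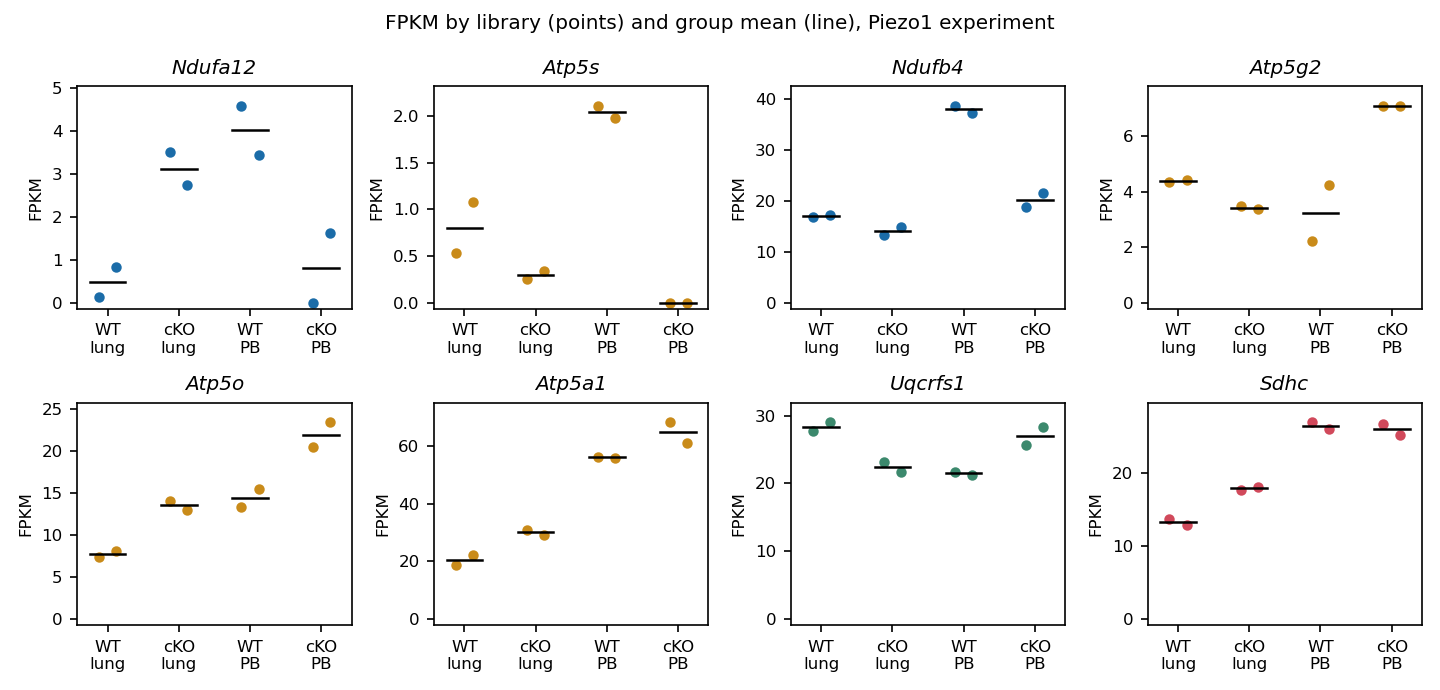
FPKM of 8 members in each of the 8 libraries of the Piezo1 experiment, with lines at group means. Ndufa12 is higher in Piezo1-cKO than in WT in lung and lower in PB, Ndufb4 differs between genotypes most in PB, and Atp5o is higher in Piezo1-cKO in both tissues.

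Whether the genotype effect differs between lung and PB was tested as an interaction of genotype and tissue. Of 74 members, 28 passed at an adjusted p under 0.05 by limma, 14 with a higher and 14 with a lower value in lung than in PB, beside 29.7% and 18.5% of all 7560 genes. The 28 include Ndufa12, Atp5s and Ndufa11. In the genotype comparison of lung (Ndufa12) or PB (Atp5s and Ndufa11), these passed the filter only through the group where they are high. Their interaction values are thus no independent sign of a difference. The members' median was -0.08 beside 0.08 for all genes. Complex III gave 4 of 8 members, all lower in lung: Uqcrfs1 at -0.64 (SE 0.0881, adjusted p = 0.000643), Uqcrc1 at -0.52, Uqcrh at -0.34 and Uqcrq at -0.27. For Uqcrfs1 the effect was 0.32 in PB and -0.32 in lung. Ndufs1 was the reverse, -0.39 in PB and 0.29 in lung, a difference of 0.68 (SE 0.0951, adjusted p = 0.000685). Sdhc had -0.03 in PB and 0.41 in lung, a difference of 0.44 (SE 0.0805, adjusted p = 0.00256 by limma), while DESeq2 called 0 complex II members higher. The split between directions depends on scaling, with 8 higher and 24 lower after FPKM was rescaled to the median gene, where all genes had 25.1% and 22.5%. With edgeR and TMM 8 members were higher and 19 lower, and with DESeq2 4 and 15, while complex III gave 4 lower and 0 higher by both. The shares of all genes by these 2 tools are not given here. With an absolute difference above 1 also required, 3 members passed, Ndufa12 and Atp5s among them, beside 6.85% of all genes. The count was 18 without WT PB replicate 1.

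Other mitochondrial gene lists put these values in context. Over all genes tested in lung vs BM, 36% were called lower and 9.86% higher. In lung vs BM, mitochondrial ribosomal proteins had 34 of 65 tested genes called lower, 3 higher and a median of -1.03. Citric acid cycle enzymes had 7 of 16 lower and -0.96. Assembly factors of the respiratory chain had 11 of 31 lower and 5 higher at -0.71, and the outer membrane and import list 10 of 22 lower and 1 higher at -0.83. Respiratory chain subunits and carriers outside the symbol rule, Cox4i1 and Cyc1 among the list, had 4 of 10 lower and -0.83. Regulators of mitochondrial biogenesis had 4 of 12 lower and 3 higher at -0.76. Glycolysis had 10 of 18 lower and 3 higher at -1.05, and cytosolic ribosomal proteins 3 of 81 lower and 1 higher at -0.11. The subunits encoded in mitochondrial DNA were not analysed here.

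In PB vs BM the members had a median of -0.40. Some of these lists had -0.32 (mitochondrial ribosomal proteins), -0.49 (citric acid cycle), -0.01 (assembly factors), -0.50 (glycolysis) and 0.32 (cytosolic ribosomal proteins). In lung vs PB they had -0.72, -0.58, -0.72, -0.59 and -0.47, beside -0.57. In Piezo1-cKO vs WT in lung they lay between -0.14 and 0.02, and in Piezo1-cKO vs WT in PB between -0.15 and 0.05. Medians of the other lists are not given here for these comparisons. By share of summed FPKM, the outer membrane and import list was at 0.0927% in BM, 0.112% in PB and 0.14% in lung. Biogenesis regulators were at 0.0324%, 0.0376% and 0.0407%, and other subunits and carriers at 0.0646%, 0.073% and 0.0606%. All these lists share libraries with the members and are set beside them with no test of a difference.

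Near-identical copies limit some of these counts. Of the 82 members, 26 have a transcript that matches another gene at 95% identity or more over at least 100 bases, among them Atp5o, Atp5g1, Atp5g2, Cox6c, Cox7a2l, Cox7b, Ndufa12, Ndufb4, Ndufc1 and Uqcrb. Reads of such genes can be split between or lost to copies, and how the counting treated them was not tested.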

How the data were processed

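RNA-seq was analysed for 17 libraries of sorted neutrophils, and whole lung samples were left out. The deposited values are FPKM per gene, which the authors made by trimming with fastp, aligning to mm10 with HISAT2 and counting with HTSeq (versions not given in the sources used here). Dividing out the FPKM steps gave whole reads for 100.0% of values above 0 (tolerance 0.02 reads), and the count tests used those reads. The lung and PB tables of the Piezo1 experiment were deposited separately and also hold a signal column per group, the authors' mean of counts over size factors, which was used to fix the reads of genes whose FPKM allowed several; their fold change and p-value columns were not used.

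Genes with at least 1 FPKM in 3 libraries (2 in the Piezo1 experiment) were tested with limma 3.58.1 in R 4.3.3 (trend and robust moderation) on log2(FPKM + 1), which understates changes of low genes, with Benjamini-Hochberg adjustment over all genes tested. Calls needed an adjusted p under 0.05 together with a log2 fold change beyond 1 in either direction, and for the interaction the adjusted p only. Each result was recomputed with 0.1 added in place of 1, without the filter, after bringing the median gene ratio of FPKM to 1, with edgeR 4.0.16 (TMM and RLE), with DESeq2 1.42.0, at the adjusted p only, with a replicate block, with all libraries in 1 fit, and without each library in turn. The tests were checked on simulated data. Copies were searched with BLAST 2.17.0.

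Named genes were the 5 largest rises and 5 largest falls per comparison among tested members with at least 5 FPKM in the higher group, a list of subunits by role, and tissue isoforms; others are said to be named after their values were seen. The members, lists and tests were chosen with earlier results of these data known. Same-numbered libraries did not deviate together (correlations from -0.076 to 0.062), so numbers were not treated as pairs. Some single-gene values are not reported here.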

Additional observations from a re-analysis of the deposited data

Results flagged for a closer look

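The effect of the Piezo1-cKO genotype differed between lung and PB for 28 of 74 members by the interaction test in limma (adjusted p under 0.05), beside 48.2% of all genes tested. The genes below are those of limma, which gave 14 higher and 14 lower, where edgeR with TMM gave 8 and 19 and DESeq2 4 and 15. Values are the log2 effect in lung minus that in PB. In complex I the effect was higher in lung for Ndufa12 (3.14), Ndufs1 (0.68), Ndufb4 (0.63), Ndufa1 (0.50), Ndufa10 (0.39), Ndufs7 (0.38), Ndufb8 (0.37) and Ndufb6 (0.24), and lower for Ndufa11 (-0.87), Ndufv3 (-0.41), Ndufs8 (-0.35) and Ndufa13 (-0.29). In complex II it was higher for Sdhc (0.44) and lower for Sdha (-0.20) and Sdhd (-0.18). In complex III it was lower for Uqcrfs1 (-0.64), Uqcrc1 (-0.52), Uqcrh (-0.34) and Uqcrq (-0.27). In complex IV it was higher for Cox7b (0.60) and lower for Cox6c (-0.40). Among ATP synthase symbols it was higher for Atp5s (1.15), Atp5a1 (0.33), Atp5j2 (0.22) and Atp5b (0.14), and lower for Atp5g2 (-1.27), Atp5h (-0.32) and Atp5c1 (-0.23). Ndufa12 and Atp5s rest on few reads. Like Ndufa11, they passed the filter of a genotype comparison only through the group where they are high. With both tissues in separate tables, the tissue and the table cannot be told apart. Values of single genes were not tested for an outlying library, since every group had fewer than 4 libraries.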

How the results depend on the processing

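No result changed sign while called. For lung vs PB, 4 members were called, and 8 with a pseudocount of 0.1, 0 with rescaled FPKM, 1 with edgeR and TMM, 0 with edgeR and RLE, 0 with DESeq2 and 60 by the adjusted p alone. For lung vs BM, 37 became 10 with rescaled FPKM, edgeR (TMM or RLE) or DESeq2, and 68 by the adjusted p alone. For PB vs BM, 12 became 57 by the adjusted p alone. For WT lung vs WT PB in the Piezo1 experiment, 14 became 4 with rescaled FPKM, 7 with edgeR or DESeq2 and 67 by the adjusted p alone. For Piezo1-cKO vs WT in lung, 1 became 35 by the adjusted p alone. For Piezo1-cKO vs WT in PB, 2 became 4 with a pseudocount of 0.1, 1 with no filter, 5 with edgeR (TMM or RLE), 32 by the adjusted p alone and 1 with the replicate block, although the numbers do not pair the libraries. For the interaction of genotype and tissue, 28 became 3 when an absolute difference above 1 was also required. Leaving out 1 library gave 2 (without lung replicate 3) to 5 for lung vs PB, 34 to 38 for lung vs BM, 10 to 13 for PB vs BM and 12 to 18 for WT lung vs WT PB. It gave 0 (without either Piezo1-cKO lung library) to 1 for the genotype in lung, 0 (without WT PB replicate 1) to 2 for the genotype in PB, and 18 (without WT PB replicate 1) to 31 for the interaction. The cause of these changes was not tested. With 2 or 3 libraries per group and 9621120 reads in the smallest, differences of genes with few reads are poorly resolved.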
